A study of Homo sapiens with 6 samples.

Results

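The Sprouty, SPRED and dual-specificity phosphatase (DUSP) genes that answer to ERK signalling were followed in AALE cells made to overexpress NRG1. They are SPRY1, SPRY2, SPRY4, SPRED1, SPRED2, SPRED3, DUSP4, DUSP5, DUSP6 and DUSP7, taken by gene symbol from a table of expected counts, and all 10 were found among its 57736 genes. AALE cells are a human airway line, derived from basal cells of the bronchial epithelium and made immortal by SV40 genes and telomerase. The 3 NRG1 libraries came from cells with a lentiviral NRG1 overexpression vector; NRG1 encodes neuregulin, a ligand of ERBB receptors. The 3 control libraries came from cells with a control lentiviral vector. Both groups were stable selected pools of the same line, grown in SAGM small airway medium, and polyA RNA was sequenced. The isoform of NRG1 in the vector and the time since selection are not given in the sources used here. No label ties libraries 1 to 3 of a group to cultures of their own, and the p-values below rest on the spread among libraries only, and that spread may be technical.

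Neuregulin binds ERBB3 and ERBB4, which pair with ERBB2 and signal to the kinases ERK1 and ERK2 through RAS, RAF and MEK. ERK signalling induces its own inhibitors. Sprouty proteins act on receptor tyrosine kinase signalling upstream of ERK, SPRED proteins recruit the RAS inactivator neurofibromin to the membrane, and DUSP proteins remove the activating phosphates from ERK. The RNA of these inhibitors is therefore widely read as a measure of ERK output, and in epithelia it answers to growth factors of the EGF family.

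The targeted gene separated the groups in every library. NRG1 (ENSG00000157168, chromosome 8) was at 6647, 3854 and 3781 CPM in NRG1 1 to 3, against 11.6, 7.87 and 12.3 CPM in control 1 to 3, where CPM is the count scaled to library size with TMM factors. Vector and cellular NRG1 reads could not be told apart. Library totals ran from 8612234 to 13207620 expected counts. A pair of libraries, NRG1 1 and control 3, stood apart from their own groups. The first principal component of log2 CPM, with 40.2% of the variance, set control 3 at -87.3 against -4.19 to 44.7 for the others, and the second, with 28.4%, set NRG1 1 at 79.0 against -25.7 to 3.06. The members' fold changes, their levels per length and the calls in the pathway lists are therefore also given without these. The basal airway markers KRT5, KRT14, KRT17, TP63, ITGB4 and ITGA6 were all expressed, with a summed level of 5632 to 7025 CPM in NRG1 libraries and 8630 to 12548 CPM in controls. The sum came mostly from KRT5 and KRT17. KRT14 and KRT17 were lower in every NRG1 library than in every control, whereas KRT5, TP63, ITGB4 and ITGA6 overlapped between the groups. TP63 was at 228, 169 and 186 CPM in NRG1 1 to 3, against 226, 158 and 164 CPM in control 1 to 3. The secretory and ciliated markers summed to 42.1 CPM in NRG1 3 and 15.7 CPM in control 3, and to at most 0.322 CPM in the other libraries. The 6 fibroblast markers summed to 20.1 to 28.1 CPM in NRG1 libraries and 42.4 to 67.6 CPM in controls, mostly from COL1A1 and DCN. The leukocyte markers summed to 3.21 to 7.01 CPM in NRG1 libraries and 2.16 to 4.35 CPM in controls, and the endothelial ones to 0.618 to 2.28 CPM and 0.645 to 0.807 CPM, with CD3E of leukocytes and CDH5 of endothelium at 0 in every library. In these bulk samples, fewer cells of a type and less RNA per cell cannot be told apart.

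The 3 Sprouty genes took different courses. SPRY4 (ENSG00000187678, chromosome 5), an inhibitor of RAS activation downstream of growth factor receptors, was at 20.9, 4.20 and 4.89 CPM in NRG1 1 to 3, against 21.5, 22.6 and 87.0 CPM in control 1 to 3. Every NRG1 library lay below every control, but NRG1 1 lay only just below control 1, and NRG1 2 and NRG1 3 were far lower. SPRY2 (ENSG00000136158, chromosome 13), the best studied Sprouty, which binds the adaptor GRB2 and the ubiquitin ligase CBL, was at 23.7, 11.2 and 11.7 CPM in NRG1 1 to 3, against 11.4, 11.6 and 31.0 CPM in control 1 to 3. Here NRG1 2 and NRG1 3 were level with control 1 and control 2, and the high values were those of NRG1 1 and control 3. SPRY1 (ENSG00000164056, chromosome 4), a related inhibitor, was at 7.79, 4.86 and 4.89 CPM in NRG1 1 to 3, against 3.14, 4.14 and 6.10 CPM in control 1 to 3. SPRY1 rested on 39 to 79 counts a library, and its groups overlapped through control 3.

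**Figure D1:**
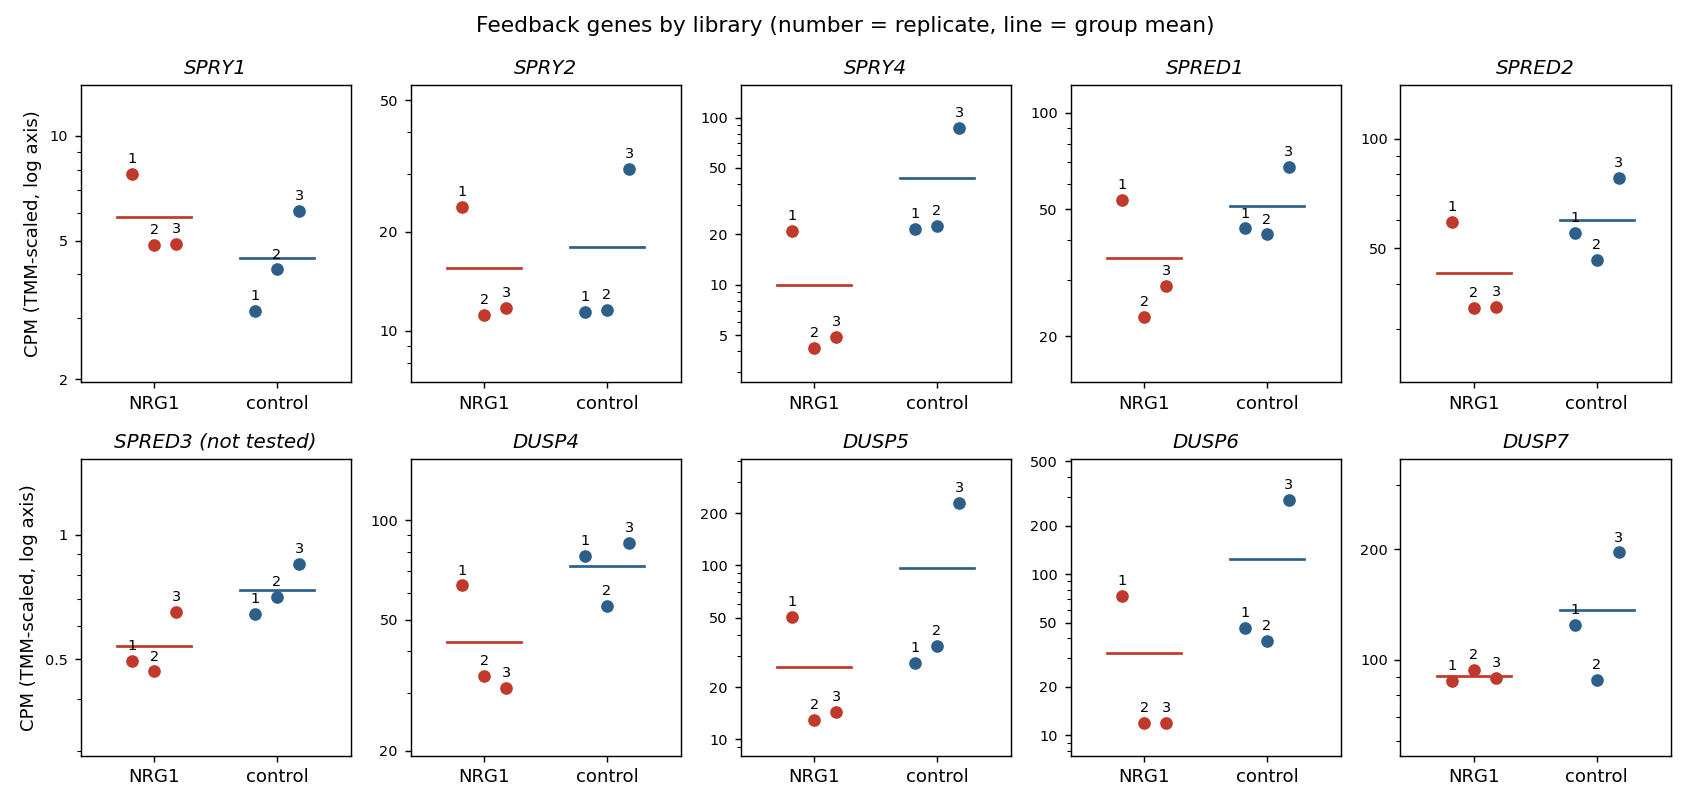
Levels of the 10 feedback genes in CPM on a log axis (each panel has its own range), with NRG1 libraries on the left and control libraries on the right; points are libraries numbered by replicate and lines are group means. Control 3 is the highest of the 6 libraries for 9 of the 10 genes, and NRG1 1 lies above NRG1 2 and NRG1 3 for 8.

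The SPRED genes varied less. SPRED1 (ENSG00000166068, chromosome 15), the gene lost in Legius syndrome, was at 53.4, 23.1 and 28.8 CPM in NRG1 1 to 3, against 43.5, 41.7 and 67.9 CPM in control 1 to 3. SPRED2 (ENSG00000198369, chromosome 2), its close relative, was at 59.2, 34.4 and 34.5 CPM in NRG1 1 to 3, against 55.3, 46.5 and 78.2 CPM in control 1 to 3. For both genes NRG1 2 and NRG1 3 lay below every control, and NRG1 1 lay inside the control range. SPRED3 (ENSG00000188766, chromosome 19) was nearly silent, with 4, 5 and 6 expected counts in NRG1 1 to 3 and 8, 7.01 and 11 in control 1 to 3. It was the only member removed by the low-count filter. Fitted without that filter, it stood at a log2 fold change of -0.47 (SE 0.56; edgeR adjusted p = 0.722), a difference smaller than its error.

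Among the nuclear phosphatases, DUSP5 was the more variable and DUSP4 the steadier. DUSP4 (ENSG00000120875, chromosome 8), which acts on ERK, JNK and p38, was at 63.4, 33.8 and 30.9 CPM in NRG1 1 to 3, against 77.9, 55.0 and 85.3 CPM in control 1 to 3. The groups overlapped through NRG1 1 and control 2 alone. DUSP5 (ENSG00000138166, chromosome 10), which is selective for ERK and holds it in the nucleus, was at 50.6, 12.9 and 14.3 CPM in NRG1 1 to 3, against 27.6, 34.6 and 228 CPM in control 1 to 3. NRG1 2 and NRG1 3 were below every control, whereas NRG1 1 exceeded control 1 and control 2, and control 3 was 7.33 times the mean of the other controls. Its pseudogene DUSP5P1 held 64 counts over all libraries.

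The cytoplasmic phosphatases differed sharply from each other. DUSP6 (ENSG00000139318, chromosome 12), an ERK-selective phosphatase whose RNA is a standard readout of ERK activity, was at 72.9, 12.0 and 11.9 CPM in NRG1 1 to 3, against 46.3, 38.7 and 289 CPM in control 1 to 3. NRG1 1 was 6.10 times the mean of NRG1 2 and NRG1 3, and control 3 was 6.80 times the mean of control 1 and control 2, so each group spanned a wide range. DUSP7 (ENSG00000164086, chromosome 3), a related ERK phosphatase, was at 87.8, 93.9 and 89.1 CPM in NRG1 1 to 3, against 124, 88.3 and 196 CPM in control 1 to 3. It was the member whose NRG1 libraries lay closest together, and control 2 fell among them. An antisense gene covers 40.5% of the DUSP6 exon bases in GENCODE 29; the kit named in the labels does not mark strand, so reads from it and from DUSP6 could not be told apart.

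**Figure D2:**
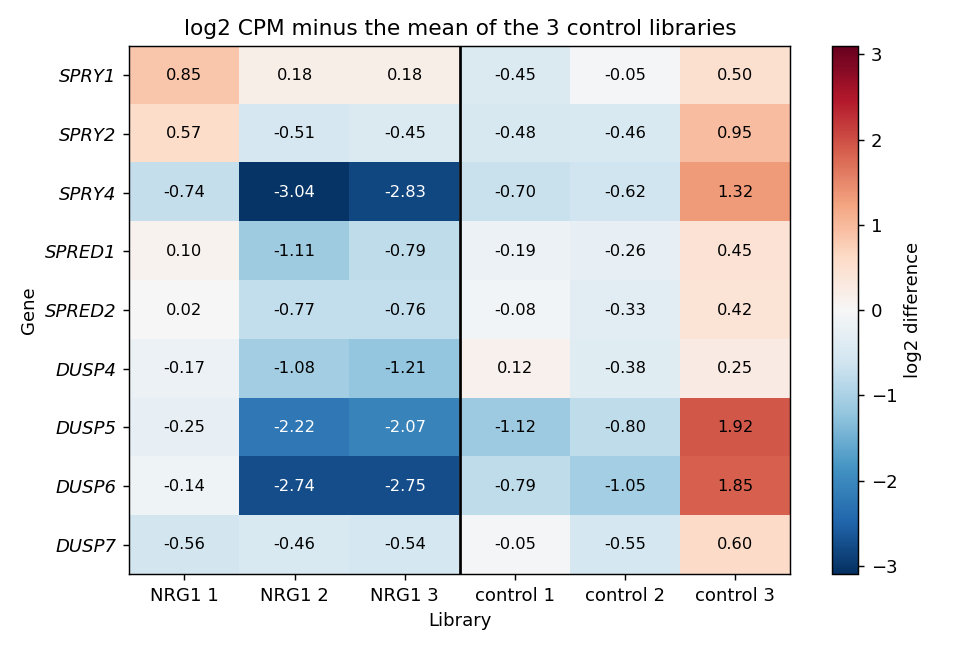
The log2 CPM of the 9 tested members (rows) in each library (columns, NRG1 libraries left of the line) minus the gene's mean over the 3 control libraries; blue is lower and red is higher. SPRY4, DUSP5 and DUSP6 span the widest range, from -3.04 for SPRY4 in NRG1 2 to 1.92 for DUSP5 in control 3.

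Tested over all libraries, the feedback genes were not called in either direction. Over 15421 genes with Benjamini-Hochberg adjustment, edgeR's quasi-likelihood F test put 0 of the 9 tested members under an adjusted p of 0.05, and it called 0.00648% of all genes, which was NRG1 alone. DESeq2 also called 0 members, against 1.36% of all genes, and edgeR with no filter on low counts 0, against 0.0704%. At an unadjusted p under 0.05, SPRY4 and DUSP4 were lower in edgeR, 2 of 9 members against 6.72% of all genes. For SPRY4 the fitted log2 fold change of NRG1 over control was -2.16 (SE 0.75; edgeR adjusted p = 0.365). It was -1.97 (SE 0.95; edgeR adjusted p = 0.448) for DUSP6 and -1.92 (SE 0.87; edgeR adjusted p = 0.432) for DUSP5. DUSP4 stood at -0.77 (SE 0.30; edgeR adjusted p = 0.395). For DUSP7, SPRED1 and SPRED2 the log2 fold changes were -0.60 (SE 0.27), -0.55 (SE 0.34) and -0.50 (SE 0.28), with adjusted p-values of 0.432, 0.533 and 0.502 in edgeR. SPRY2 was at -0.23 (SE 0.47) and SPRY1, the only member above 0, at 0.37 (SE 0.37), with adjusted p-values of 0.860 and 0.692. The fitted fold change was below 0 in 8 of 9 members, against 50% of all genes, and its median was -0.60 in the members and 0.00 in all genes. SPRY4 was the only member whose groups did not overlap, against 10.2% of all genes in which the NRG1 libraries all lay below the controls. Permuting its 6 libraries in every way (exact test, two-sided) gave p = 0.1 for SPRY4, and 3 against 3 cannot go lower.

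Control 3 and NRG1 1 were then left out, a comparison of 2 against 2 libraries chosen because these libraries stood apart. At an edgeR adjusted p under 0.05, 6 of the 9 members were lower in NRG1 2 and NRG1 3, and 0 were higher. In that comparison 4.77% of 15717 genes were called lower and 5.07% higher. SPRY4 was at -2.29 (SE 0.19; edgeR adjusted p = 0.00291) and DUSP6 at -1.84 (SE 0.16; edgeR adjusted p = 0.00297) on the log2 fold change scale. DUSP5 was at -1.20 (SE 0.17), DUSP4 at -1.04 (SE 0.18), SPRED1 at -0.72 (SE 0.15) and SPRED2 at -0.57 (SE 0.13), with adjusted p-values of 0.00992, 0.0164, 0.0270 and 0.0393 in edgeR. DUSP7, SPRY2 and SPRY1 were not called, with log2 fold changes of -0.22 (SE 0.16), -0.01 (SE 0.18) and 0.43 (SE 0.28). In mean levels, SPRY4 was at 4.54 CPM in NRG1 2 and NRG1 3 against 22.1 CPM in control 1 and control 2, and DUSP6 at 12.0 CPM against 42.5 CPM. Removing libraries for their distance lowers the spread within groups, so that these p-values understate the error, by how much is unknown. The comparison was also not planned, and it was chosen with earlier results known. It left out NRG1 1, the library with the most NRG1 RNA. That RNA was at 6647 CPM there, against 3854 and 3781 CPM in NRG1 2 and NRG1 3. In log2 CPM, NRG1 1 correlated at 0.948 and 0.942 with control 1 and control 2. Its correlation was 0.933 with both NRG1 2 and NRG1 3, which correlated at 0.980 with each other. Whether the members followed the level of NRG1 was not tested. NRG1 1 was above NRG1 2 and NRG1 3 in 8 of the 9 members, and control 3 was the highest library in 8. Leaving these out therefore also shaped the fold changes and the count of members called.

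Members were called in edgeR only with both libraries left out, but leaving out either alone called few genes of any kind. Without NRG1 1 alone 0 of 9 members passed edgeR, against 50 of 16056 genes. DUSP6 was then at -3.37 (SE 1.00; edgeR adjusted p = 0.175). Without control 3 alone 0 members passed either, against 1 of 15718 genes. The DUSP6 fold change shrank there to -0.43 (SE 0.77) and that of DUSP5 to -0.29 (SE 0.58). SPRY2 changed sign there, to 0.41 (SE 0.36). SPRY4 stayed the lowest member without control 3, at -1.19 (SE 0.64), and its edgeR adjusted p was 0.608.

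**Figure D3:**
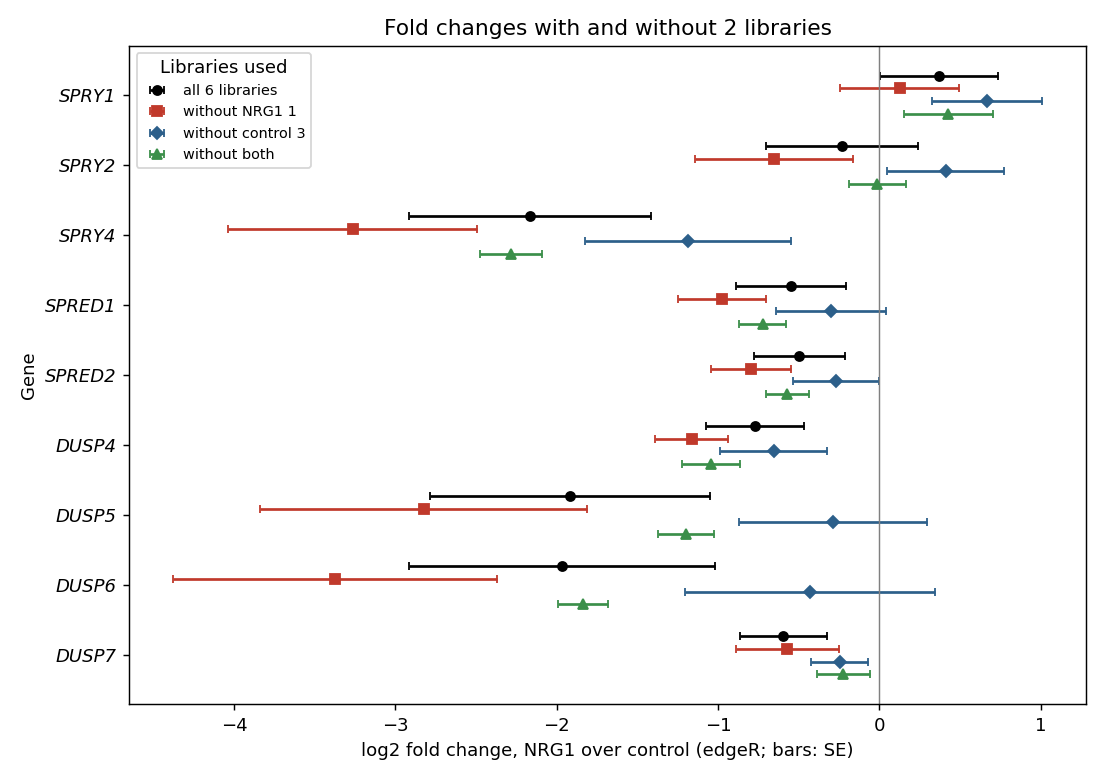
Fitted log2 fold change of NRG1 over control for each tested member (rows) with all 6 libraries, without NRG1 1, without control 3 and without both; bars are standard errors from edgeR. DUSP6 runs from -3.37 without NRG1 1 to -0.43 without control 3, and SPRY2 from -0.65 to 0.41.

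Across libraries most members had their extremes in the same places, though by differing amounts. SPRY1 was highest in NRG1 1, and DUSP7 hardly varied among the NRG1 libraries. Control 3 was the highest of all libraries for 8 of the 9 tested members, against 29.9% of all genes. NRG1 1 was above NRG1 2 and NRG1 3 for 8 of 9, against 44.9%. NRG1 2 and NRG1 3 were both below every control for 6 of 9, namely SPRY4, SPRED1, SPRED2, DUSP4, DUSP5 and DUSP6, against 22.2% of all genes. For the same 6 except SPRY4, and for SPRY2, NRG1 1 lay inside the control range, against 41.7% of all genes. Relative to the control mean, the median member was at -0.14, -1.08 and -0.79 on the log2 scale in NRG1 1 to 3, and at -0.45, -0.46 and 0.60 in control 1 to 3. The medians of all tested genes ran from -0.01 to 0.01. Control 3, where the members peaked, also held the secretory transcripts given above, but so did NRG1 3, where most members were low; their part in the result was not tested.

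By its mean, DUSP7 was the most abundant member per length in NRG1 libraries, whereas the order in controls turned on control 3. On the scale of CPM per kilobase of annotated exon, the members ran in NRG1 libraries from DUSP7 at 16 ± 0.57, DUSP5 at 9.91 ± 8.16 and SPRED2 at 8.29 ± 2.77 to SPRY4 at 1.52 ± 1.44, SPRY1 at 1.47 ± 0.425 and SPRED3 at 0.0917 ± 0.0170 (SD, n = 3). In control libraries the order was led by DUSP5 at 37.0 ± 43.6, DUSP6 at 26.9 ± 30.7 and DUSP7 at 24.1 ± 9.73, and ended with SPRY1 at 1.13 ± 0.380 and SPRED3 at 0.125 ± 0.0179 (SD, n = 3). In control libraries the leading 3 did not differ beyond their spread. In control 1 and control 2 alone DUSP7 led at 18.8 ± 4.53, followed by DUSP5 at 11.9 ± 1.88, SPRED2 at 9.88 ± 1.20, DUSP6 at 9.18 ± 1.17 and DUSP4 at 9.16 ± 2.24 CPM per kilobase (SD, n = 2). In NRG1 2 and NRG1 3 alone DUSP7 was at 16.2 ± 0.60, SPRED2 at 6.68 ± 0.019, DUSP5 at 5.21 ± 0.39 and DUSP6 at 2.58 ± 0.0028 CPM per kilobase (SD, n = 2). With all 3 NRG1 libraries, the levels overlapped within their spread for DUSP5, SPRED2, DUSP6 at 6.97 ± 7.60, DUSP4 at 5.89 ± 2.48, SPRY2 at 5.12 ± 2.33 and SPRED1 at 4.25 ± 1.95. DUSP7 stood above these by its mean, though in NRG1 1 both DUSP5 and, narrowly, DUSP6 lay above DUSP7.

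Differences between related genes within a library do not depend on scaling between libraries. SPRY4 minus SPRY2 was -0.18, -1.41 and -1.26 on the log2 CPM scale in NRG1 1 to 3, against 0.91, 0.96 and 1.49 in control 1 to 3. SPRY4 was thus the lower of the pair in every NRG1 library and the higher in every control. The mean difference was -0.95 ± 0.67 in NRG1 libraries and 1.12 ± 0.32 in controls (SD, n = 3 each), and NRG1 1 lay on the NRG1 side here. DUSP6 minus DUSP7 was -0.27, -2.97 and -2.90 in NRG1 1 to 3, against -1.42, -1.19 and 0.56 in control 1 to 3, so NRG1 1 fell inside the control range. SPRED1 minus SPRED2 stayed between -0.57 and -0.15 in every library and showed no separation of the groups. SPRY1 minus SPRY2 ran from -1.60 to -1.20 in NRG1 libraries and from -2.34 to -1.48 in controls, and DUSP4 minus DUSP5 from 0.33 to 1.39 and from -1.42 to 1.49. These differences are descriptions with no test.

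The genes whose course over the libraries was nearest to the mean of the 9 tested members were EPHA2, F3, FERMT2, C5orf34 and MTFR2. Nearness was the root mean square difference of log2 CPM centred on the control mean, over 6 libraries and 10590 genes with a symbol and at least 10 CPM. It was 0.0966 for EPHA2, an ephrin receptor whose gene answers to ERK, which was at 208, 99.4 and 87.5 CPM in NRG1 1 to 3, against 170, 155 and 380 CPM in control 1 to 3. It was 0.113 for F3, the gene of tissue factor, 0.127 for FERMT2, an integrin activator, 0.128 for C5orf34 and 0.153 for MTFR2. The members themselves lay further from their mean, from 0.315 for SPRED1 to 1.02 for SPRY4, so the mean was not the course of any member. All 5 of the nearest genes showed control 3 highest and NRG1 2 and NRG1 3 lowest, which follows from how they were chosen. EPHA2 is also in the list of ERK transcription outputs below.

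Beyond the 10 members, the median ERK output was also lowest in NRG1 2 and NRG1 3, and the median gene of the cascade lay near 0 in every library. Of 16 ERK transcription outputs tested, 13 had a fold change below 0, against 50% of all genes, and the median of the 16 was -0.87. Against 0.00648% of all genes, edgeR with all libraries called 0 of these outputs. Set against the mean of the controls, their median was 0.31, -1.18 and -1.31 in NRG1 1 to 3, and -0.19, -0.26 and 0.42 in control 1 to 3. Without control 3 and NRG1 1, edgeR called 10 of 16 as lower and 1 as higher, against 4.77% and 5.07% of all genes. ETV5, a transcription factor induced by ERK, was at 62.2, 10.6 and 12.0 CPM in NRG1 1 to 3, against 56.1, 57.8 and 91.3 CPM in control 1 to 3. HBEGF, an EGF receptor ligand, was at 31.3, 14.9 and 17.3 CPM in NRG1 1 to 3, against 33.0, 40.2 and 198 CPM in control 1 to 3, and was called lower by DESeq2 (adjusted p = 0.0459) but not by edgeR (adjusted p = 0.358). PHLDA1, induced by growth factors, was at 100.1, 25.2 and 27.5 CPM in NRG1 1 to 3, against 166, 55.3 and 144 CPM in control 1 to 3. NRG1 1 lay inside the control range, and control 2 stood below the other controls. Its log2 fold change was -1.27 (SE 0.59; edgeR adjusted p = 0.440) with all libraries and -2.08 (SE 0.45; edgeR adjusted p = 0.0309) without control 3 and NRG1 1. In the same comparison ETV5 was called lower at -2.34 (SE 0.14; edgeR adjusted p = 0.00107) and HBEGF at -1.19 (SE 0.16; edgeR adjusted p = 0.00871).

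Among 15 further feedback genes edgeR called 0, against 0.00648% of all genes. The fitted value lay below 0 in 12 of them, against 50% of all genes. SPRY3, the remaining Sprouty, was at 2.10, 2.90 and 3.04 CPM in NRG1 1 to 3, against 5.64, 5.65 and 3.40 CPM in control 1 to 3. All its NRG1 libraries lay below the controls, in 1 of these 15 genes against 10.2% of all genes. Control 3 was the lowest control for SPRY3, unlike in the members. DUSP10, a phosphatase of JNK and p38, was at 9.15, 14.4 and 15.3 CPM in NRG1 1 to 3, against 13.6, 9.08 and 95.0 CPM in control 1 to 3, so that only control 3 stood out. SOCS3, an inhibitor of cytokine receptor signalling, had 13, 9.16 and 6.73 CPM in NRG1 1 to 3, against 9.99, 11.1 and 107 CPM in control 1 to 3, again with control 3 alone high. DUSP16, another JNK and p38 phosphatase, was at 24.4, 20.8 and 21.2 CPM in NRG1 1 to 3, against 23.8, 24.9 and 59.5 CPM in control 1 to 3. Its log2 fold change was -0.71 (SE 0.36) with all libraries, -0.15 (SE 0.17) without control 3 and -0.22 (SE 0.14) without both libraries, and edgeR called it in none of these 3 fits. Without control 3 and NRG1 1, edgeR called 1 of these 15 as lower and 0 as higher, against 4.77% and 5.07% of all genes. The gene called was IER3, which is also in the list of ERK outputs and is counted among the 10 called there.

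The 19 genes of the RAS-ERK cascade had a median log2 fold change of -0.04, with 11 below 0, against 50% of all genes. With all libraries edgeR called 0 of the 19, against 0.00648% of all genes. Without control 3 and NRG1 1 edgeR called 1 of 19 as lower, SHC1, and 1 as higher, SOS2, against 4.77% and 5.07% of all genes. SHC1, the adaptor that links receptors to RAS, was at 341, 335 and 344 CPM in NRG1 1 to 3, against 494, 469 and 487 CPM in control 1 to 3. Its groups did not overlap, and its adjusted p with all libraries was 0.315 in edgeR and 0.0399 in DESeq2. Without control 3 and NRG1 1 its log2 fold change was -0.51 (SE 0.10; edgeR adjusted p = 0.0276). SOS2, an activator of RAS, was at 59.7, 70.4 and 70.2 CPM in NRG1 1 to 3, against 45.0, 49.4 and 41.7 CPM in control 1 to 3. It stood at 0.56 (SE 0.17; edgeR adjusted p = 0.335) with all libraries and at 0.57 (SE 0.11; edgeR adjusted p = 0.0242) without those, and its groups did not overlap. MAPK3, the gene of ERK1, stood at a log2 fold change of 0.32 (SE 0.17; edgeR adjusted p = 0.483) with all libraries and 0.23 (SE 0.12; edgeR adjusted p = 0.278) without those. The groups of MAPK3 did not overlap either. In this list of 19, 2 genes had all NRG1 libraries below all controls, against 10.2% of all genes. In 3 of the 19 all NRG1 libraries lay above all controls, against 1443 of 15421 genes. Of the receptors, ERBB2 was at 135, 164 and 140 CPM in NRG1 1 to 3, against 146, 123 and 141 CPM in control 1 to 3. ERBB3 was at 26.2, 48.0 and 54.2 CPM in NRG1 libraries, against 39.1, 37.3 and 43.5 CPM in controls, and EGFR at 729, 381 and 406 CPM, against 486, 469 and 658 CPM. ERBB4 held 3 counts in each NRG1 library and 2, 0 and 2 in control 1 to 3. The log2 fold changes of EGFR, ERBB2 and ERBB3 were -0.09 (SE 0.27), 0.10 (SE 0.15) and 0.10 (SE 0.27) with all libraries. Without control 3 and NRG1 1 they were -0.28 (SE 0.11), 0.17 (SE 0.13) and 0.41 (SE 0.12), with edgeR adjusted p-values of 0.136, 0.443 and 0.0781, so that none of the 3 receptors was called.

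**Figure D4:**
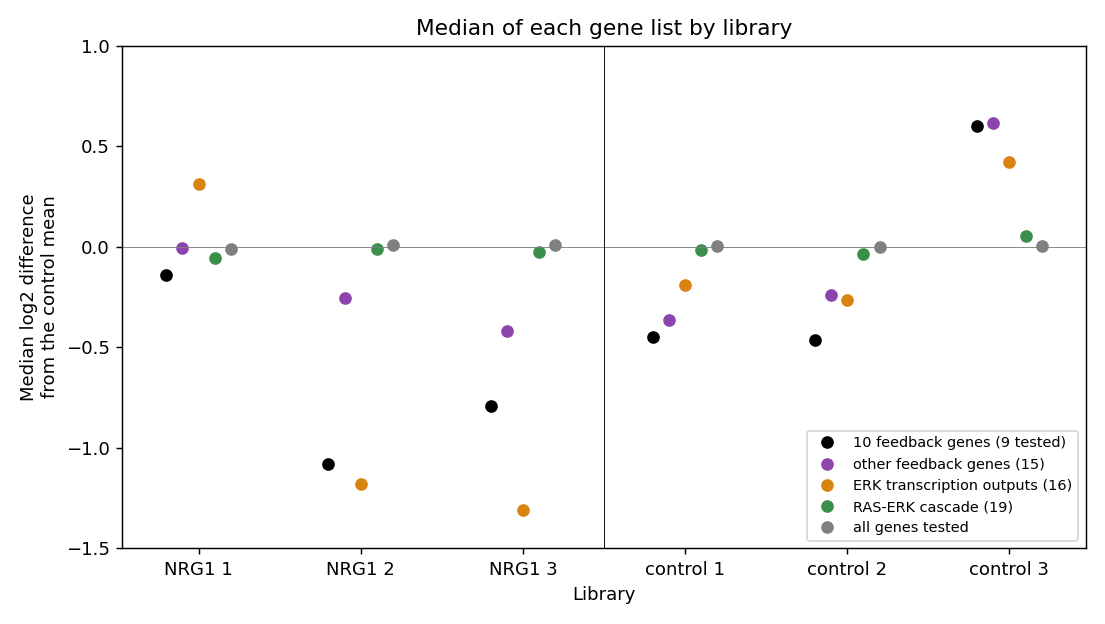
Median over each gene list of the log2 CPM minus the gene's control mean (vertical axis), by library (horizontal axis, NRG1 libraries left of the line), with colours for lists. The medians of the 9 tested feedback genes and of the ERK transcription outputs are lowest in NRG1 2 and NRG1 3 and highest in control 3, whereas the RAS-ERK cascade and all tested genes lie near 0 in each library.

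SPRY4 and DUSP6, the members with the lowest fold change, were far lower in NRG1 2 and NRG1 3 than in NRG1 1. DUSP7 lay below the control mean in every NRG1 library but hardly varied among them. Promoter sequence is shown for SPRY4, DUSP6 and DUSP7. Each is the stretch of 250 bases before a RefSeq start in GRCh38.p14, on the minus strand, with every GGAA, the core letters bound by ETS factors, on either strand (GGAA or TTCC) in capitals. DUSP6 is at chr12:89352502-89352751, SPRY4 at chr5:142324248-142324497 and DUSP7 at chr3:52056572-52056821.
DUSP6: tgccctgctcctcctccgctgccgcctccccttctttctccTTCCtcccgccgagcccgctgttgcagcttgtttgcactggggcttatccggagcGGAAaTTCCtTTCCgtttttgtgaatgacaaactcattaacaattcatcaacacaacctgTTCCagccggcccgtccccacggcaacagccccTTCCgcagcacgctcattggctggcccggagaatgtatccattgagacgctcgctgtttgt
SPRY4: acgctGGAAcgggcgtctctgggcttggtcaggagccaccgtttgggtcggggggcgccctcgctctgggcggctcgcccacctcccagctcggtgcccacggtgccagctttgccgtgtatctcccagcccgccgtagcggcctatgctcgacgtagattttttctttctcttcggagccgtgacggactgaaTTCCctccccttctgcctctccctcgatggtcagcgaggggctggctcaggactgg
DUSP7: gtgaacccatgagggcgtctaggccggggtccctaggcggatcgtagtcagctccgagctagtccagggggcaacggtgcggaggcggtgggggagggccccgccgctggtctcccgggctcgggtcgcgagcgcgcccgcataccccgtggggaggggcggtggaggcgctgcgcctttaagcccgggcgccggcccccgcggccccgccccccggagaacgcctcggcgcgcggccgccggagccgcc
DUSP6 held 6 such matches, SPRY4 2 and DUSP7 0, and 92.7% of 35116 RefSeq promoter windows of that length hold at least 1. Among the members 12 of 13 windows held it, close to that share. The SPRY1 windows held 5 and 4 matches and the SPRY2 windows 4, 4 and 3, more than SPRY4, so the number of matches did not order the members as their fold changes did. RefSeq windows were found for 8 of the 10 members, 13 windows in all, with none used for DUSP4 and DUSP5. The longer ETS letters CCGGAAGT were in 0 of the 13 and in 3.42% of all windows, the CRE letters TGACGTCA in 0 and in 1.65%, and the AP-1 letters TGANTCA in 1, a SPRED3 window, and in 6.57%, each searched on both strands. A match is a description of letters, not of binding, and DUSP7's window is also richer in G and C, at 78.4% against 57.2% for DUSP6 and 65.6% for SPRY4.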

How the data were processed

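PolyA RNA of 3 NRG1 and 3 control vector libraries of AALE cells went into TruSeq libraries, per the labels' protocols, and titles gave each library's group and number. The authors deposited expected counts, unrounded and not normalized, per Ensembl gene; the submitters' processing notes name hg19, RSEM 1.3.0, STAR 2.5.3a, MultiQC 0.9 and FastQC 0.11.3. The authors' other deposited table covers 14759 genes on a log2 scale. Its values came within 1e-09 of log2 CPM computed here from the counts (TMM, prior count 0.25). Linear CPM had been thought possible there, and the values were used as deposited.

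Expected counts were rounded and tested with edgeR 4.0.16 (R 4.3.3; TMM, filterByExpr, quasi-likelihood F test, no covariate), with Benjamini-Hochberg adjustment over 15421 genes, which held at least 99.7% of each library's counts. Library totals of 8612234 to 13207620 limit the precision of low genes such as SPRY1 and SPRED3. The standard error is the fold change divided by the square root of F. DESeq2 1.42.0 and limma 3.58.1 were used in alternatives, and the tests were tried on simulated counts. Symbols matched 51959 identifiers; exon lengths and overlaps came from GENCODE 29 (GRCh38), matched on identifiers.

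The 10 members, the pathway and marker lists and the comparison without control 3 and NRG1 1 were chosen with earlier results of these data known. Named were all members, NRG1, up to 4 tested genes of each list with the smallest unadjusted p, the ERBB receptors and the 5 nearest genes; others were named after their values were seen, as were the GGAA letters. A gene that this rule names in the cascade list is not reported here.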

Additional observations from a re-analysis of the deposited data

How the results depend on the processing

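The count of genes called by edgeR with all libraries was 1; it was 209 in DESeq2, 21 with no low-count filter, 2 in limma-voom without rounding, 2 with the replicate number as a block, from 1 to 50 when leaving out a library in turn (50 without NRG1 1), and 1547 without control 3 and NRG1 1. The count of members called was 0 in every one of these but the last, where it was 6, with log2 fold changes of -2.29 for SPRY4, -0.72 for SPRED1, -0.57 for SPRED2, -1.04 for DUSP4, -1.20 for DUSP5 and -1.84 for DUSP6. SPRY2 ran from -0.65 to 0.41 when leaving out a library in turn, with the sign turned without control 3; the other tested members kept their sign in every setting run. Of genes outside the members, DUSP10 turned to 0.37 without both libraries and ran from -2.07 to 0.18 on leaving out one at a time, EGFR from -0.45 to 0.079 and ERBB3 from -0.10 to 0.36. Deviations of same-numbered libraries from their group means correlated at 0.01, 0.08 and -0.07. With 3 libraries a group, NRG1 1 and control 3 shape all of these deviations. The correlations therefore cannot decide whether the replicate numbers pair the libraries. The median member fold change ran from -0.98 to -0.29, lowest without NRG1 1 and nearest 0 without control 3. Scaling by upper quartile or by library totals moved the median of all genes by at most 0.05. SPRY1 and SPRED3, with the fewest counts, are the members depth limits most.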

Other observations

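FOS, an immediate early gene that encodes a subunit of the AP-1 transcription factor, went against the members in the comparison without control 3 and NRG1 1. It was at 246, 145 and 101 CPM in NRG1 1 to 3, against 27.6, 42.7 and 493 CPM in control 1 to 3. In that comparison its log2 fold change was 1.81 (edgeR adjusted p = 0.00781), while the members called there were all lower. With all libraries its log2 fold change was -0.20. ETV1 and ETV4, transcription factors of the same family as ETV5, were at 20.6, 1.78 and 1.52 CPM and at 36.7, 6.82 and 8.36 CPM in NRG1 1 to 3. In control 1 to 3 they were at 12.0, 12.6 and 19.9 CPM and at 33.9, 38.3 and 32.9 CPM. IER3, an early response gene, was at 155, 39.1 and 39.5 CPM in NRG1 1 to 3, against 78.8, 60.7 and 296 CPM in control 1 to 3. These genes were chosen after their values were seen.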
